A study of Rattus norvegicus with 10 samples.

Results

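The levels of 10 genes of the regulated secretory pathway were described in the trigeminal ganglion (TG) of naive rats and of the oral ulcerative mucositis (OUM) model. They comprise Vgf, a nerve growth factor inducible peptide precursor; the granins Scg2, Scg3, Scg5, Chga and Chgb; the prohormone convertases Pcsk1 and Pcsk2; and the trimming and amidating enzymes Cpe and Pam. The 10 genes were taken from 15507 gene symbols on the array by their names, and Vgf had been chosen by its measured difference between naive and OUM rats in these same arrays. For this reason the differences of the 10 genes are given as a description: no p is given for any of them, and nothing is read from the counts past a threshold. Each gene had 1 probe of 30367, and all 10 probes were well above background on all 10 arrays.

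The TG holds the cell bodies of sensory neurons of the face and mouth, with satellite glia around them and Schwann cells along the axons. The 5 OUM rats, male Wistar, were anesthetized and had filter paper with 50% acetic acid laid on the lower labial fornix for 30 s, and their TGs were collected on day 2, when the ulcer was present. The 5 naive rats, also male Wistar, received anesthesia alone, and the labels give them the same day and no age. Whole ganglia of both sides were used, so that divisions of the nerve that do not supply the treated mucosa contributed RNA as well. Total RNA of each rat was hybridised to 1 single-colour array.

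Peptide hormones and neuropeptides are made as long precursors that enter dense-core vesicles in the Golgi. There the convertases cut after paired basic residues, carboxypeptidase E removes the basic residues left at the new end, and peptidylglycine alpha-amidating monooxygenase turns a terminal glycine into an amide. Granins are acidic proteins that help to form the vesicles and are themselves cut into peptides, and Vgf peptides are released from sensory neurons and have been studied in models of pain.

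Levels are log2 of the processed signal relative to the 75th percentile of signal on the same array, so that 0 is the level of that percentile. Levels of different probes cannot be set against each other. The 75th percentile lay between 2620 and 2949 signal units over the 10 arrays, and 70.9% to 77.2% of probes were well above background. The arrays came from 2 slides: slide 1 held naive arrays 1, 2, 3 and 5 and OUM arrays 1, 2 and 3, and slide 2 held naive array 4 and OUM arrays 4 and 5. Of 19654 features tested with limma, 2 passed an adjusted p of 0.05, Alkal2 and Xkr6, which is 0.0102% of all features. None of the 10 genes was among them. As in any bulk tissue, fewer cells of a type and less RNA per cell cannot be told apart here.

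Vgf and Scg2 were the members whose promoters, among the 8 of 10 genes with a RefSeq promoter entry, carried the full cyclic AMP response element (CRE, TGACGTCA, which reads the same on both strands), the binding site of the factor CREB. Their 150 bases before the annotated start are shown because both have the same element while their levels in OUM differed in pattern. The sequences are from RefSeq, build GRCr8, minus strand, 5′ to 3′, and the capitals mark the CRE.
Vgf, chr12:25277021-25277170: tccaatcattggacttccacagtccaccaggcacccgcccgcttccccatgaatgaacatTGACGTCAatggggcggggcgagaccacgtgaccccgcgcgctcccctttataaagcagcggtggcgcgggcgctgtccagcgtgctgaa
Scg2, chr9:88256867-88257016: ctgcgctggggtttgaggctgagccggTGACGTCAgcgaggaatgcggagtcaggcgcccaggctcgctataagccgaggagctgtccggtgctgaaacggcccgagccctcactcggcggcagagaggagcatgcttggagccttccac

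The CRE began at position -90 from the start in Vgf and at -123 in Scg2. Among 33469 RefSeq promoters of the same 300 bases, 612 (1.83%) held the full element, and a further 19.4% held only the shorter core site (TGACG, or CGTCA on the other strand). Scg3, Scg5, Pcsk2, Cpe and Pam had the core site only, and Chgb had neither; Chga and Pcsk1 were without an entry. Of the 305 tested genes with the full element, 3.93% were higher and 5.25% lower in OUM at an unadjusted p under 0.05, with a median difference of -0.021. Among all 9772 tested genes with a promoter entry, the shares were 4.44% and 4.43% and the median was -0.0078. The share of higher genes was thus close to the background in genes with the element. A match in these letters is not a binding site, and no binding was measured.

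The Vgf level was higher in most OUM rats than in the naive rats. In naive arrays 1 to 5 it was 1.56, 1.82, 2.03, 1.87 and 1.74, and in OUM arrays 1 to 5 it was 2.50, 2.55, 2.49, 2.10 and 1.93. Of the 5 OUM arrays, 4 lay above all naive arrays, and OUM array 5 lay below naive array 3, so the groups overlapped. The mean level was 1.80 ± 0.17 (SD, n = 5) in naive and 2.31 ± 0.28 (SD, n = 5) in OUM rats. The difference, OUM minus naive, was 0.51 log2 units (SE 0.13), a 1.42-fold higher signal. Of all tested features, 0.728% had a larger positive difference. Vgf was chosen by this difference, so nothing is read from its rank.

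**Figure D1:**
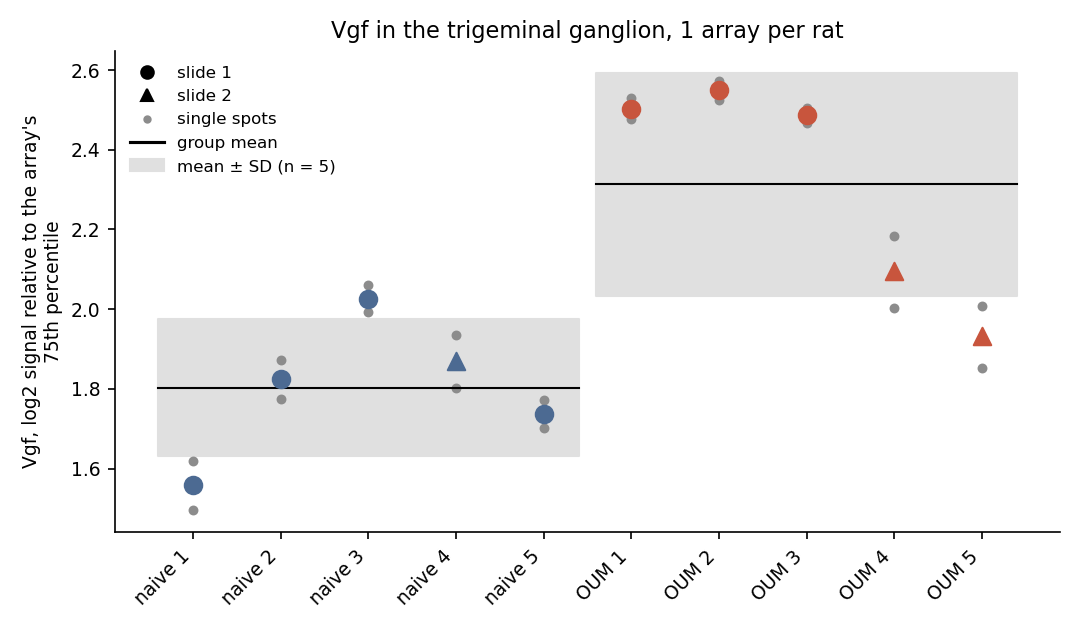
Vgf level on each array, as log2 signal relative to the 75th percentile of the array; large points are arrays (circles, slide 1; triangles, slide 2; blue, naive; red, OUM), small grey points the single spots, lines the group means and grey bands the mean ± SD (n = 5). OUM arrays 1, 2 and 3 lie at 2.49 to 2.55, while OUM arrays 4 and 5, both on slide 2, lie at 2.10 and 1.93, next to the naive arrays.

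The duplicate spots of the Vgf probe lay close together. Each array carried 2 of them, whose signals ran from 7525 to 17100 units over all arrays. Their gap within an array had a median of 0.086 and reached 0.18 log2 units at most, while the arrays spanned 0.99. No spot of the 10 genes was left out as an outlier or saturated, of 200 spots.

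The size of the Vgf difference was not the same on both slides. Within slide 1, with 4 naive and 3 OUM arrays, it was 0.73, and within slide 2, with 1 naive and 2 OUM arrays, it was 0.14. With the slide as a block it was 0.56. Slide 2 has only 3 arrays. Leaving out any 1 array gave 0.45 to 0.61, and the other scalings of the arrays gave 0.52 to 0.55.

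High levels of pituitary hormone genes were seen on 3 arrays, naive array 1 and OUM arrays 1 and 2. Pomc, the precursor of corticotropin, was at 3.78, 3.62 and 4.08 there and at -2.13 to 1.55 on the other 7 arrays. Gh1, growth hormone, was at 2.42, 2.34 and 2.62 there and at -4.32 to 1.19 elsewhere, and Prl, prolactin, was at 0.75, 0.26 and 0.88 there and at -8.14 to -2.18 elsewhere. Drd2, the dopamine receptor of lactotrophs and of some neurons, ran from -1.24 to -0.46 over all 10 arrays.

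Of 21 pituitary markers, 10 were tested, and their summed level ran from 1.35 to 22.3 in naive and from 2.03 to 26.8 in OUM arrays. Ghrhr, Gnrhr and Six6, also pituitary markers, were not well above background on any array. Vgf was lowest of all 10 arrays, at 1.56, on the pituitary-rich naive array 1 and highest, at 2.55, on the pituitary-rich OUM array 2. OUM array 3, with Pomc at -0.84, had Vgf at 2.49. Without the 3 arrays the Vgf difference was 0.31, 1.66 times smaller than with all arrays. The arrays left were not even in pituitary RNA, as the Pomc difference among them was 2.30. Pomc was at -0.84, 1.55 and 1.35 in OUM arrays 3 to 5 and at -2.13 to -0.87 in naive arrays 2 to 5. The 3 arrays are all on slide 1. Those left were naive arrays 2 to 5 and OUM arrays 3 to 5, of which naive array 4 and OUM arrays 4 and 5 are on slide 2. The subset thus also changed the share of the slides, and the part of pituitary RNA in the smaller difference was not tested.

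**Figure D2:**
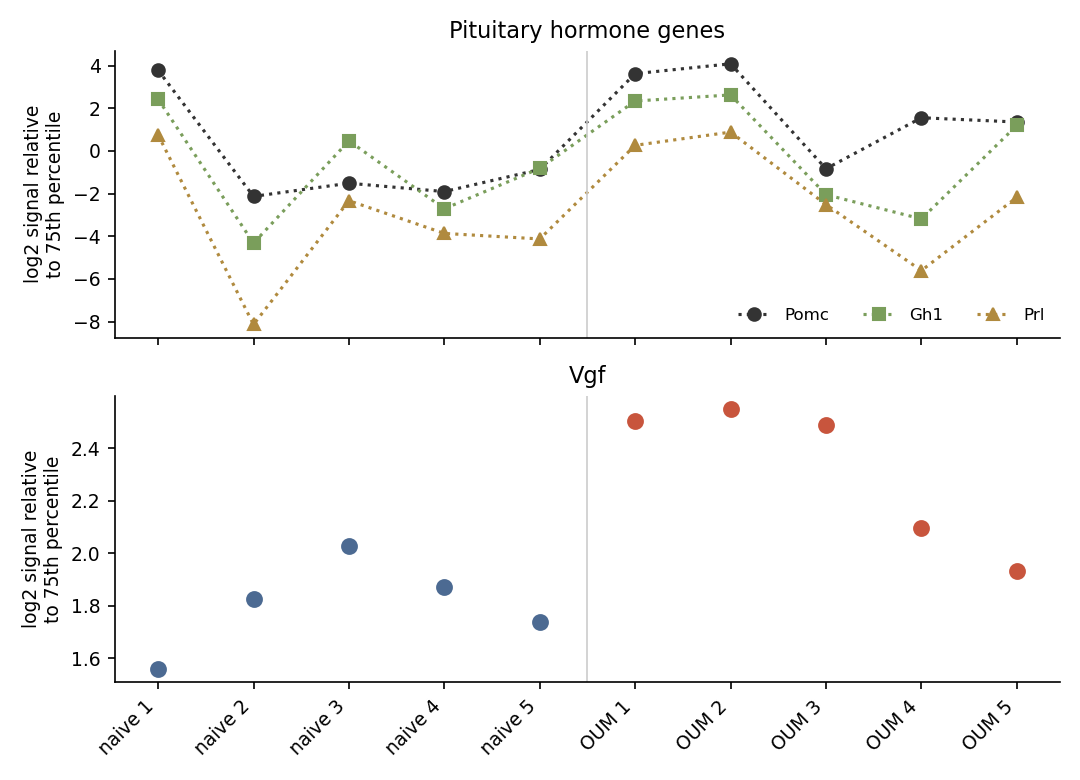
Levels of Pomc, Gh1 and Prl (upper) and of Vgf (lower) on each array, as log2 signal relative to the 75th percentile of the array; dotted lines only join points of 1 gene. Pomc is at 3.78, 3.62 and 4.08 on naive array 1 and OUM arrays 1 and 2, where Vgf is at 1.56, 2.50 and 2.55.

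The TG holds sensory neurons, so the Vgf level was also read against neuron markers. The cells that the Vgf RNA came from were not measured. The 18 neuron markers tested had a mean log2 level of 3.23 ± 0.051 in naive and 3.15 ± 0.13 in OUM rats (SD, n = 5), and their summed level was 544 to 600 in naive and 492 to 624 in OUM arrays. OUM arrays 4 and 5, with the lowest Vgf of the OUM arrays, had summed levels of 492 and 506, but OUM array 2, with the highest Vgf, was at 503. Relative to the mean of the neuron markers, a reference chosen after seeing the data, the Vgf difference was 0.59. The median difference of the neuron markers was -0.090, beside -0.011 over all features, and 3 of the 18 were positive. Of the 18 neuron markers none was higher and 2, Elavl4 and Scn9a, were lower at an unadjusted p under 0.05, beside 3.91% and 5.04% of all features. Their differences were -0.17 and -0.15 (limma adjusted p = 0.54 and 0.44), and none of the 18 passed the adjusted threshold. For Scn9a all OUM arrays lay below all naive arrays, as they did for 1.01% of all features. Rbfox3 and Pou4f1, which also define these neurons, had no probe with their symbol.

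Unlike Vgf, the other 9 genes differed little between the groups. Their differences ran from -0.12 to 0.063 log2 units, 3 of them positive and 6 negative, and their 95% intervals ran from -0.37 to 0.30, which are folds of 0.776 to 1.23. The median over the 10 genes was -0.042, beside -0.011 over all features. Of the 10 genes, Vgf alone was higher and none was lower at an unadjusted p under 0.05, beside 3.91% of all features higher and 5.04% lower; the first count is the gene that was selected on this contrast. For no gene were the groups apart, beside 0.789% of all features with the OUM group wholly above the naive group and 1.01% with it wholly below.

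**Figure D3:**
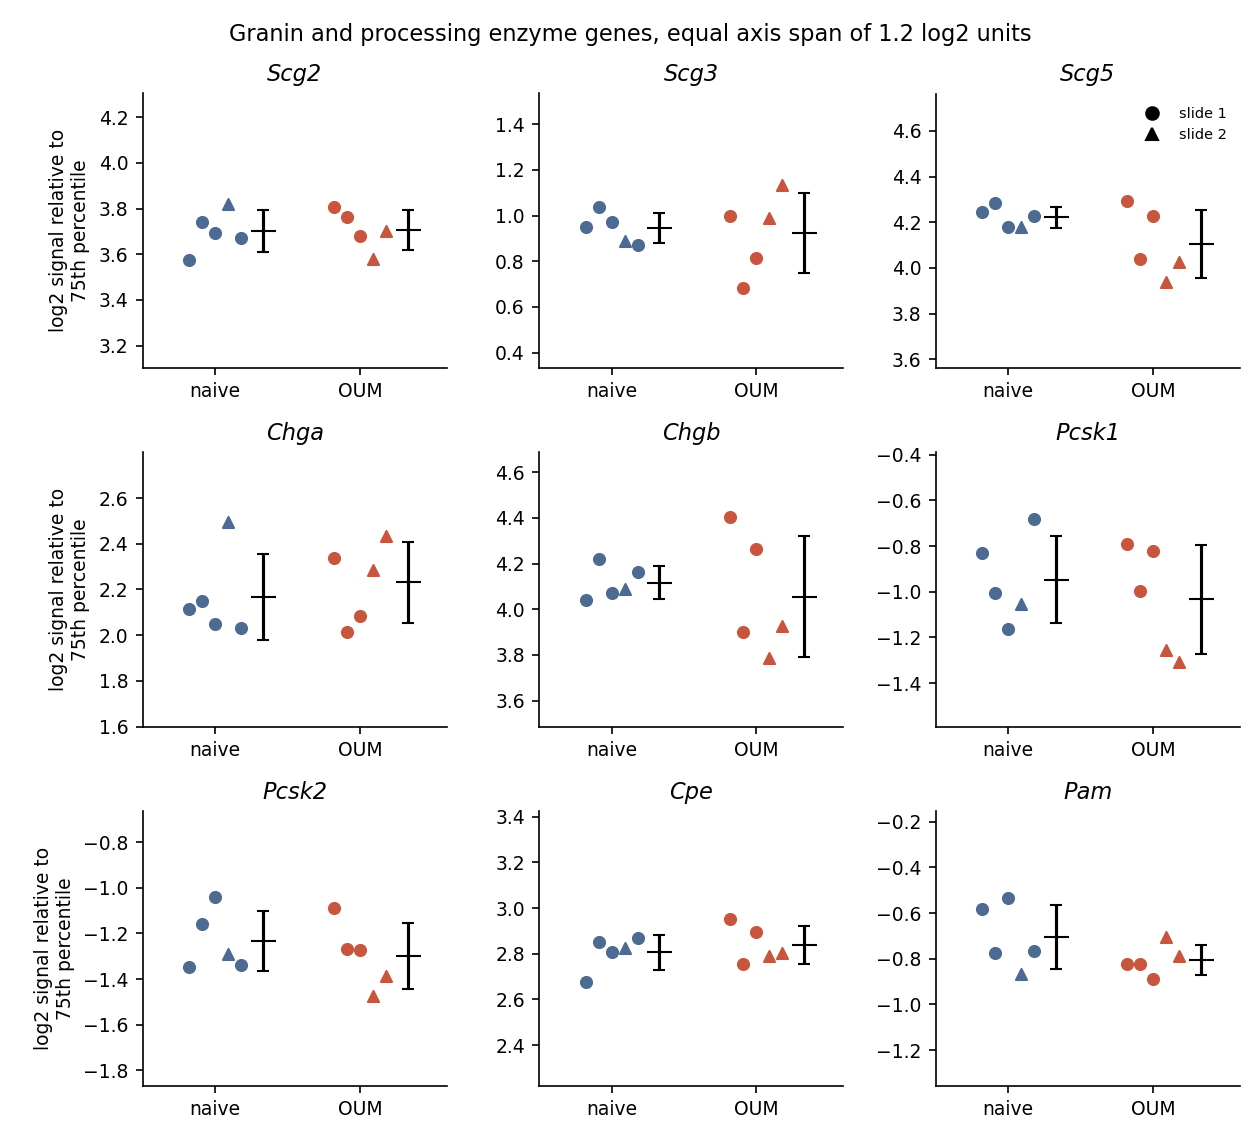
Levels of the 9 other genes in naive (blue) and OUM (red) rats, as log2 signal relative to the 75th percentile of the array; points are arrays (circles, slide 1; triangles, slide 2) and bars the mean ± SD (n = 5), and each panel spans the same number of log2 units. The groups overlap in every panel, and the OUM arrays are spread more widely than the naive arrays in Scg3, Scg5 and Chgb.

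Among the granins, Scg2 (secretogranin II, the precursor of secretoneurin) had the smallest difference. It was at 3.57, 3.74, 3.69, 3.82 and 3.67 in naive arrays 1 to 5 and at 3.81, 3.76, 3.68, 3.58 and 3.70 in OUM arrays 1 to 5. Every OUM value lay within the naive range. The difference was 0.0071 (SE 0.059, 95% interval -0.12 to 0.14); its promoter carries the same CRE as that of Vgf.

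Scg5 encodes 7B2, the chaperone that Pcsk2 needs to become active. It was at 4.25, 4.28, 4.18, 4.18 and 4.23 in naive arrays 1 to 5 and at 4.29, 4.04, 4.23, 3.94 and 4.03 in OUM arrays 1 to 5. OUM arrays 2, 4 and 5 lay below all naive arrays and OUM array 1 above them. The difference was -0.12 (SE 0.069, 95% interval -0.27 to 0.038). Without OUM array 1 it was -0.16.

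Chromogranin B, Chgb, was also more widely spread in OUM than in naive rats. It was at 4.04, 4.22, 4.07, 4.09 and 4.16 in naive arrays 1 to 5 and at 4.40, 3.90, 4.26, 3.79 and 3.93 in OUM arrays 1 to 5. OUM arrays 1 and 3 lay above all naive arrays, and OUM arrays 2, 4 and 5 below them. The SD was 0.074 in naive and 0.26 in OUM rats, and the difference was -0.062 (SE 0.11). Both Scg5 and Chgb were highest on OUM array 1 and lowest on OUM array 4, the arrays with the highest and the lowest summed level of neuron markers, 624 and 492. The part of neuron content in their spread was not tested.

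Chromogranin A, Chga, ran from 2.03 to 2.50 in naive and from 2.01 to 2.44 in OUM arrays, with a difference of 0.063 (SE 0.11). Its highest naive value, 2.50, was on naive array 4, and the other naive arrays lay at 2.03 to 2.15; without that array the difference was 0.15, and with the slide as a block it was 0.0046. Scg3, secretogranin III, which binds Chga and sorts it to vesicles, ran from 0.87 to 1.04 in naive and from 0.68 to 1.13 in OUM arrays, with a difference of -0.021 (SE 0.081). The Scg3 difference had no settled sign: it was 0.018 without scaling between arrays, 0.037 without the 3 pituitary-rich arrays and -0.074 to 0.039 leaving out each array in turn, with 0.0018 without naive array 2, 0.039 without OUM array 2 and 0.0058 without OUM array 3. Its 2 spots were up to 0.38 apart on 1 array. Signs were not settled for some other members either. Scg2 was at -0.024 without naive array 1, Chgb at 0.0058 without OUM array 4, and Cpe at -0.0097 without the 3 pituitary-rich arrays.

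The convertases that open the precursors did not stand apart either. Pcsk1 was at -0.83, -1.01, -1.16, -1.05 and -0.68 in naive arrays 1 to 5 and at -0.79, -0.99, -0.82, -1.25 and -1.31 in OUM arrays 1 to 5. OUM arrays 4 and 5, both on slide 2, lay below all naive arrays. The difference was -0.087 (SE 0.13), and the spots of Pcsk1 were up to 0.69 apart on 1 array, more than the range of 0.63 over arrays.

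Pcsk2 ran from -1.35 to -1.04 in naive and from -1.47 to -1.09 in OUM arrays, with a difference of -0.063 (SE 0.084). Here too OUM arrays 4 and 5 were the lowest. Cpe, the carboxypeptidase, ran from 2.68 to 2.87 in naive and from 2.76 to 2.95 in OUM arrays, and its difference was 0.033 (SE 0.054). OUM arrays 1 and 3 lay above all naive arrays.

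Pam, the amidating enzyme, was at -0.58, -0.78, -0.53, -0.87 and -0.77 in naive arrays 1 to 5 and at -0.82, -0.82, -0.89, -0.70 and -0.79 in OUM arrays 1 to 5. The OUM arrays lay among the lower naive arrays, with 1 OUM array below all of them. The difference was -0.10 (SE 0.069, 95% interval -0.25 to 0.055). Within slide 1 it was -0.18, and within slide 2 it was 0.12.

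Signs differed between the slides for most of these genes. Of the 9, 8 had opposite signs within slide 1 and within slide 2, Scg5 being the exception with -0.046 and -0.19. Scg2, for example, was at 0.082 within slide 1 and -0.18 within slide 2, and Chgb was at 0.065 and -0.23. Some of these values were small, such as Pcsk2 at 0.011 within slide 1 and Cpe at -0.031 within slide 2. All slide 2 differences were taken against the same single naive array, so the signs are not independent of each other. The share of all features with opposite signs was not counted, so nothing is read from this count. Relative to the neuron markers the differences of the 9 ran from -0.036 for Scg5 to 0.14 for Chga, with Cpe at 0.11.

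**Figure D4:**
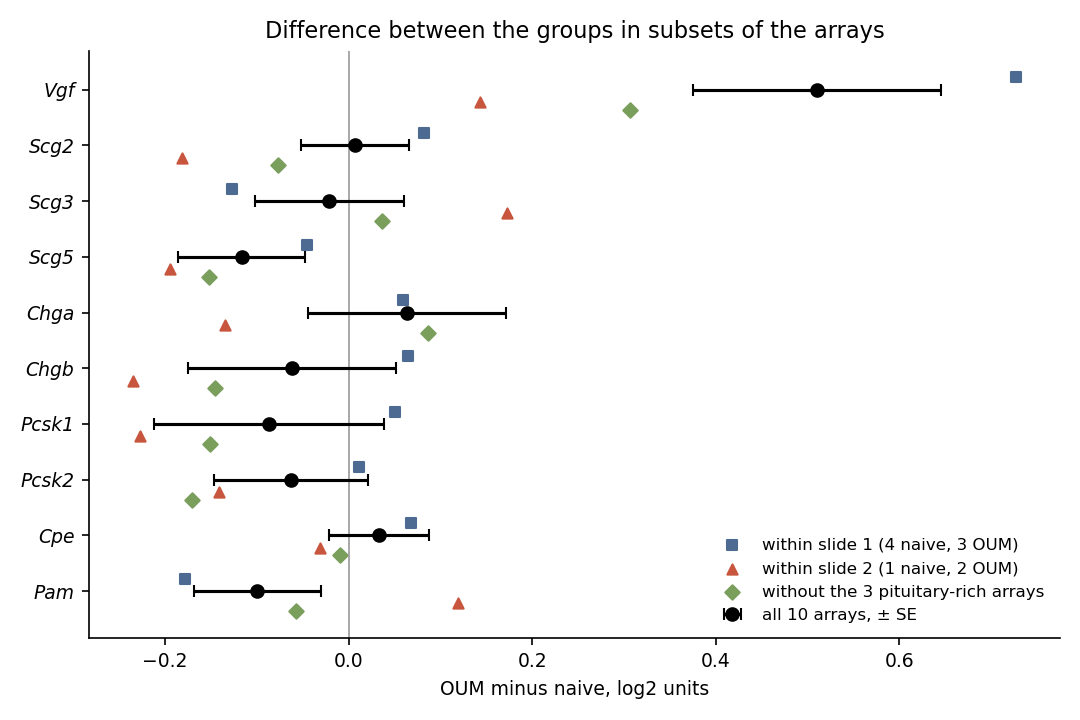
Difference between OUM and naive rats in log2 units for the 10 genes; black points are all 10 arrays with ± SE, squares are slide 1, triangles are slide 2, and diamonds leave out the 3 arrays rich in pituitary hormone genes. Vgf lies at 0.73 within slide 1 and 0.14 within slide 2, and 8 of the other 9 genes change sign between the slides. All slide 2 differences are taken against the same single naive array.

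The rest of the processing machinery was read from a list of 25 further enzymes and inhibitors, all of which were tested. None passed an adjusted p of 0.05, 2 were higher and 1 was lower at an unadjusted p under 0.05, beside 3.91% and 5.04% of all features, and the median difference was 0.033. Pcsk6 (PACE4, a constitutive-pathway convertase) was at 0.30 ± 0.17 in naive and 0.57 ± 0.17 in OUM rats (SD, n = 5), with a difference of 0.27 (SE 0.10, limma adjusted p = 0.51). Rnpep, an aminopeptidase for basic residues, had a difference of 0.13 (SE 0.049, limma adjusted p = 0.51), and Ide, the insulin-degrading enzyme, had one of -0.10 (SE 0.042, limma adjusted p = 0.54).

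Of 42 genes of dense-core vesicle formation, transport and release, 37 were tested and none passed the adjusted threshold. Of these, 3 were higher and 2 were lower at an unadjusted p under 0.05, beside 3.91% and 5.04% of all features, with a median of -0.014. Rab27b, a small GTPase of vesicle docking, was at -0.52 ± 0.11 in naive and -0.79 ± 0.14 in OUM rats (SD, n = 5), a difference of -0.27 (SE 0.077, limma adjusted p = 0.46). Caly, which takes part in endocytosis at nerve endings, had a difference of -0.23 (limma adjusted p = 0.51). Sytl4, granuphilin, an effector of Rab27, had one of 0.56 (SE 0.22, limma adjusted p = 0.52) but was well above background on only 2 of 5 naive arrays; the difference was 0.17 with normexp background correction and 0.36 without naive array 5. The other 2 higher genes, named after their values were seen, were Rph3al and Sort1, at 0.34 and 0.18.

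Among 51 peptide precursors that travel in such vesicles, 36 were tested, and none passed the adjusted threshold. Of these, 4 were higher and 3 were lower at an unadjusted p under 0.05, beside 3.91% and 5.04% of all features, and the median difference was 0.075. Penk, the enkephalin precursor, was at -2.59, -2.38, -2.31, -2.43 and -2.42 in naive arrays 1 to 5 and at -3.08, -2.89, -4.17, -2.95 and -2.90 in OUM arrays 1 to 5. All OUM arrays lay below all naive arrays, as they did for 1.01% of all features. The difference was -0.77 (SE 0.23, limma adjusted p = 0.47).

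Cartpt, the CART precursor, was also without overlap, at -2.67 to -2.06 in naive and -3.57 to -2.79 in OUM arrays, a difference of -0.64 (SE 0.18, limma adjusted p = 0.45). Ucn, urocortin, lay on the other side, at -5.86 ± 0.55 in naive and -5.07 ± 0.26 in OUM rats (SD, n = 5), a difference of 0.79 (limma adjusted p = 0.49), which was 0.39 with normexp background correction and 1.35 within slide 2. The remaining genes past the unadjusted threshold, named after their values were seen, were Npy, Nppc and Bdnf, at 0.42, 0.22 and 0.17, and Nmb at -0.13. Within slide 2 the differences of Penk and Rab27b were -0.50 and -0.12, in both cases smaller in size than over all arrays by more than 1.5 times.

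Vgf transcription is known to follow neurotrophins and neuronal activity, and 35 genes regulated by activity or CREB were read beside it. Of these, 31 were tested, none passed the adjusted threshold, 5 were higher and none was lower at an unadjusted p under 0.05, beside 3.91% and 5.04% of all features, and the median difference was 0.035. The 5 were Nr4a1, Atf3, Klf4 and, named after their values were seen, Egr2 (0.38) and Bdnf (0.17), which is also counted in the lists of precursors and of neurotrophins. Of the 31, 18 had a positive difference, and the list was mixed, with Fos at 0.27 and Junb at 0.13 but Egr1 at -0.12 and Sik1 at -0.19. Nr4a1, an orphan nuclear receptor induced as an immediate early gene, was at 1.30, 1.52, 1.28, 1.40 and 1.42 in naive arrays 1 to 5 and at 1.68, 1.72, 1.71, 1.72 and 1.68 in OUM arrays 1 to 5.

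For Nr4a1 the lowest OUM array was above the highest naive array, with a difference of 0.32 (SE 0.051, limma adjusted p = 0.16). It was 0.32 within slide 1 and 0.30 within slide 2. Atf3, a transcription factor of injured neurons, was at -1.07, -0.90, -0.88, -1.11 and -0.96 in naive arrays 1 to 5 and at -0.79, -0.39, -0.41, -0.56 and -0.48 in OUM arrays 1 to 5.

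The groups were apart for Atf3 as well (0.789% of all features had OUM wholly above naive), with a difference of 0.46 (SE 0.083, limma adjusted p = 0.22), at 0.42 within slide 1 and 0.59 within slide 2. Klf4 had a difference of 0.31 (SE 0.086, limma adjusted p = 0.46), and its groups overlapped.

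Receptors for Vgf peptides and the neurotrophins that induce Vgf made a list of 12, of which 10 were tested and none passed the adjusted threshold. Of these, 1 was higher and 1 was lower at an unadjusted p under 0.05, beside 3.91% and 5.04% of all features. Ntrk3, the receptor of neurotrophin 3, was lower at an unadjusted p under 0.05, at 2.54 ± 0.078 in naive and 2.33 ± 0.085 in OUM rats (SD, n = 5; difference -0.21, SE 0.055, limma adjusted p = 0.42), with a difference of -0.12 when the probes of the gene were averaged. Bdnf, which signals through another Trk receptor, was higher at an unadjusted p under 0.05 by 0.17 (SE 0.066, limma adjusted p = 0.53). Hspa8, a chaperone reported to bind a Vgf peptide, had a difference of -0.084 (SE 0.055, limma adjusted p = 0.68) and one of -0.025 with quantile normalization, and the median over the list was 0.046.

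**Figure D5:**
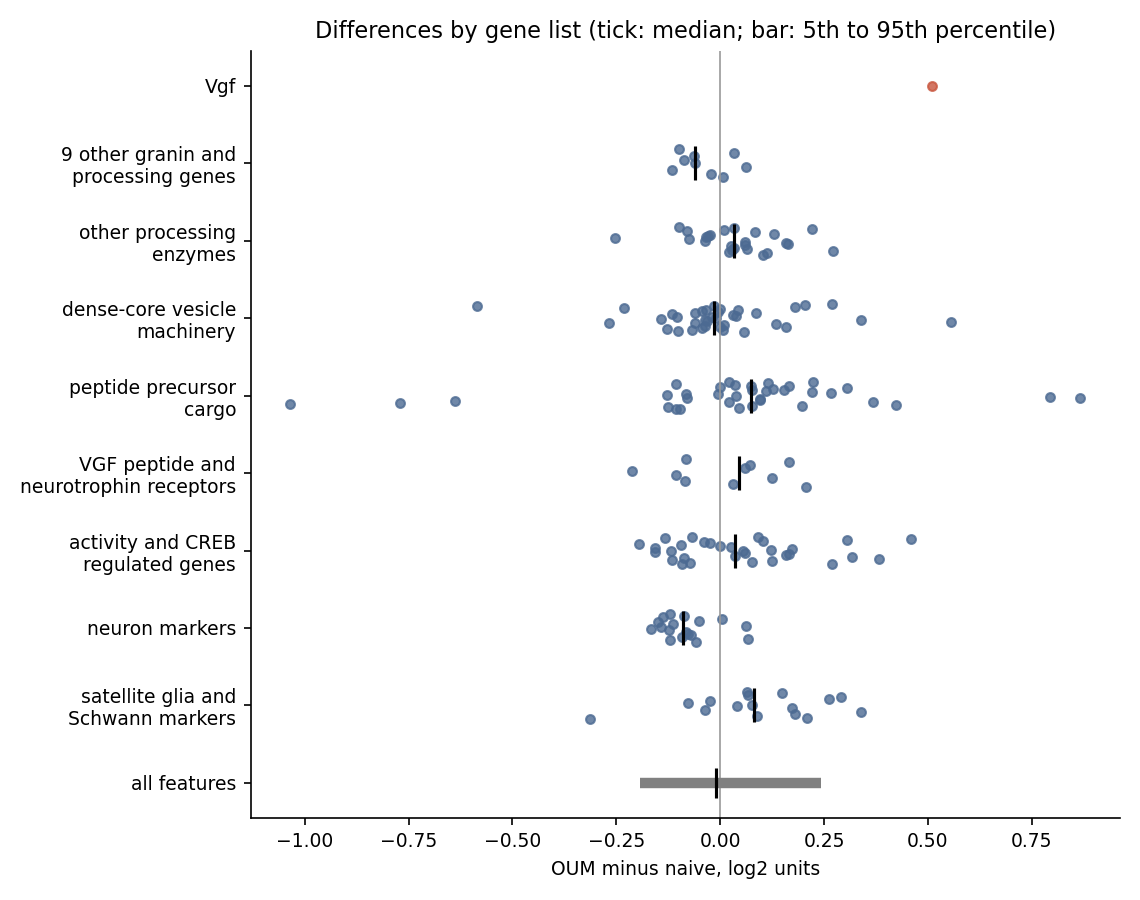
Difference between OUM and naive rats in log2 units; each point is a tested gene of the list named at the left, ticks are list medians, and the grey bar runs from the 5th to the 95th percentile of all tested features with its median at -0.011. Vgf lies at 0.51, right of the bar, and the other 9 granin and processing genes lie at -0.12 to 0.063, inside it. Vgf was chosen by this difference, so nothing is read from its place.

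Other cell types were read from marker lists. The 16 satellite glia and Schwann markers had a median difference of 0.082 and a summed level of 538 to 613 in naive and 558 to 592 in OUM arrays. Gja1 and Sox10 were higher (0.34 and 0.17) and Fabp7 was lower (-0.31) at an unadjusted p under 0.05, beside 3.91% and 5.04% of all features. The 11 macrophage and neutrophil markers had a median of 0.11, with S100a8 and S100a9, both abundant in neutrophils, at -0.28 and -0.40 and the other 9 positive, and summed levels of 13.1 to 19.3 and 14.2 to 19.4. Chromaffin and islet markers, from cells that also store granins, had 5 tested genes with a median of -0.095 and summed levels of at most 1.39 in naive and 1.62 in OUM arrays. None of the genes of these lists passed the adjusted threshold, and the part that cell composition had in the Vgf difference was not tested.

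The 5 named genes whose levels over the 10 arrays, after taking out each group's mean, were most like Vgf were Bap1, Nomo1, Usp19, Grk6 and Kctd10. Their Pearson correlations with Vgf were 0.99, 0.97, 0.97, 0.96 and 0.96, and their Spearman correlations 0.95, 0.96, 0.90, 0.94 and 0.89. These are the highest of all tested genes over 10 arrays that share slides, so they are a description. Their own differences between OUM and naive rats were 0.027 to 0.090, far below that of Vgf.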

How the data were processed

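TG total RNA of 5 naive and 5 OUM rats was measured with 1 single-colour Agilent array per rat. The authors quantified the scans with Agilent Feature Extraction 10.7.1.1, and the deposited intensity per spot is background-subtracted and detrended. The flags deposited by the authors beside it, as other values, mark outlier, saturated and well above background spots. The authors' value table holds the same intensity divided by a constant per array, near the 75th percentile over probes; the percentile used here is over spots and is higher.

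Without control and outlier spots, spots were averaged to probes and log2 was taken minus the array's 75th percentile. Accessions gave 18438 of 30367 probes 1 symbol through RefSeq (GRCr8) and left 11929 without. Of a gene's probes the brightest was kept. The 19654 features detected as well above background throughout at least 1 group were fitted with limma 3.58.1 in R 4.3.3 with Benjamini-Hochberg adjustment. On simulated data the fit recovered 73.1% of genes changed 1.5-fold. There 200 genes were changed 1.5-, 2- or 4-fold, and the noise was independent, without slides or pituitary RNA. The share is thus a check of the fit and not its power in these data.

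The 10 genes, the lists and the tests were chosen with earlier results of these data known. Named genes are the 10, the 3 of each list with the lowest p, the 4 pituitary genes with the highest value on any array and the 5 most like Vgf. Precision is limited by 5 arrays per group. Alternatives were other scalings, filters, blocks, the methods' t-test and arrays left out; the level relative to neuron markers was added after seeing the data. Protein sequences were not used here.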

Additional observations from a re-analysis of the deposited data

Results flagged for a closer look

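Among 58 groups of 5 arrays, 4 had 1 array set off from the rest by more than Dixon's 95% limit, where chance gives about 1 in 20. Chga was high on naive array 4 (2.50, the others 2.03 to 2.15). Pcsk6 was low on OUM array 1 (0.27, the others 0.61 to 0.69). Penk was low on OUM array 3 (-4.17, the others -3.08 to -2.89). Pomc was high on naive array 1 (3.78, the others -2.13 to -0.87).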

How the results depend on the processing

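The Vgf difference ran from 0.14, within slide 2, to 0.73, within slide 1, over the alternatives; filters, probe choice, the replicate block and the t-test cannot move it. The count of the 10 genes higher at an unadjusted p under 0.05, 1, is Vgf, which was selected on this contrast, so nothing is read from it. It was 0 without the 3 pituitary-rich arrays, and it is not given within slide 2, which has 1 naive array. The count lower, 0, was 1 within slide 1 and 0 to 1 leaving out each array. No alternative put any of the 10 past the adjusted p. Of all features, 2 passed it; 0 did with quantile normalization, median scaling, no scaling, no filter on dim probes, the mean of a gene's probes, the methods' t-test, the authors' value table or without the 3 pituitary-rich arrays, 1 with normexp, the trend and robust prior or array weights, 162 within slide 2, and 0 to 1 leaving out each array. Samples were not treated as paired by replicate number. Arrays of equal number, after taking out group means, correlated at -0.011, -0.049, 0.13, 0.33 and -0.092 for replicates 1 to 5. The arrays of replicates 1, 2 and 3 share slide 1, and those of replicate 4 share slide 2. Arrays of unequal number were not compared, so these correlations cannot exclude a pairing. With the replicate block the Vgf difference was 0.51 and 0 features passed. At an unadjusted p, 769 features were higher and 991 lower; the counts were 928 and 743 with quantile normalization, 927 and 559 with median scaling, 1096 and 361 without scaling and 950 and 695 from the authors' table. Prl was at -0.026 within slide 2. Drd2, -0.0086, was 0.0027 with quantile normalization, 0.0062 with median scaling, 0.031 without scaling, 0.0077 with normexp, 0.030 with the slide block, 0.11 within slide 1, 0.0053 from the authors' table and -0.12 to 0.079 leaving out each array. The cause was not tested. Signals far above background left detection no limit for the 10 genes; 5 arrays per group set their precision.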
